A study of Mus musculus with 6 samples.

Results

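Small nucleolar RNAs (snoRNAs) are short non-coding RNAs of the nucleolus. Box C/D snoRNAs, whose gene symbols begin with Snord, mostly guide 2′-O-methylation of ribosomal RNA, and box H/ACA snoRNAs, whose symbols begin with Snora, mostly guide pseudouridylation. A few do neither and are needed to cut the ribosomal RNA precursor. In mammals most snoRNAs lie in introns of other genes, many of them ribosomal protein genes, and are trimmed out of the spliced intron, so 1 transcript gives both a host RNA and a snoRNA.

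The snoRNA genes described here are all probesets with a single gene symbol that starts with Snora or Snord, 56 of the 21789 single-symbol probesets of the array. They comprise 23 Snora probesets for 20 symbols and 33 Snord probesets for 31 symbols. RNA came from mouse embryonic stem (ES) cells carrying the 2C::tomato reporter, sorted by flow cytometry into 2C::tomato+ cells (positive, 3 arrays) and 2C::tomato- cells (negative, 3 arrays). All 6 titles mark the cells as WT, and the replicate numbers 1 to 3 occur once in each group. The protocol text covers vehicle or 4OHT treatment, by which Kdm1a can be deleted, without saying which of them these 6 samples received. In published work the reporter is driven by a retroviral promoter active in the early embryo, so a positive cell is defined by that promoter and not by an embryonic stage.

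Values are log2 expression levels as normalized by the authors, and every difference below is on that log2 scale. The 6 arrays had medians between 6.95 and 7.04 and correlated at 0.965 to 0.995 across probesets. The 8 ES cell markers, among them Pou5f1 and Nanog, had a mean level between 12.10 and 12.52 in positive arrays and between 12.33 and 12.58 in negative arrays. The 8 markers of the two-cell-like state had a mean level of 8.35, 11.46 and 7.23 in positive arrays 1, 2 and 3, against 5.29, 5.44 and 5.66 in negative arrays 1, 2 and 3, so positive array 2 stands apart from the other positive arrays.

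The probes for an intronic snoRNA can bind both the mature snoRNA and unspliced host RNA, and the array cannot tell these apart. The members are not independent of each other. For 5 symbols there were 2 probesets, whose values differed by at most 0.20 on any array, and Snora73a and Snora73b, near-identical copies, differed by at most 0.10. By the RefSeq annotation of assembly GRCm38.p6, 54 of the 56 lie within a longer gene, 40 host genes in all, and 10 of these hosts hold more than 1 snoRNA symbol.

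Between reporter groups the snoRNAs did not shift together. The median difference, positive minus negative, was 0.0029 over the Snora probesets (12 above 0 and 11 below). It was -0.06 over the Snord probesets (13 above 0 and 20 below). Over all probesets it was -0.04 (8907 above 0 and 12882 below), a balance close to that of the Snord probesets. Single members ranged from -0.65 for Snord49a to 0.75 for Snora44. In the fit across all probesets (limma, Benjamini-Hochberg) 0 of 56 snoRNA probesets passed, as did 0.0% of all 21789. The 8 markers of the two-cell-like state did not pass either, with a median difference of 3.51 and no overlap between groups. A lack of calls in this test therefore does not show a lack of difference. At an unadjusted p under 0.05 there were 2 of 56, against 4.51% (983) of all probesets. Both, Snora44 and Snord104, were higher in positive arrays, where 2.12% of all probesets met that p, against 2.39% lower. Blocking on replicate number gave 3 of 56, adding Snord85, against 12.0% (2614). No member was at least 2-fold apart between the groups, against 0.62% of all probesets higher and 0.0138% lower. The class medians depended on single arrays: without positive array 2 they were 0.36 for Snora and 0.40 for Snord, and without positive array 3 they were -0.24 and -0.34. Without both arrays of replicate 2 they were 0.24 and 0.20.

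Within replicate numbers the snoRNAs differed in opposite directions. In replicate 2 the positive array was below the negative array for 50 of 56 members, against 58.2% of all probesets, with a median difference of -0.55 for Snora and -0.52 for Snord, and 10 were at least 2-fold lower, against 0.656%. In replicate 3 the positive array was above the negative array for 55 of 56 members, against 49.2%, with medians of 0.38 and 0.42, and 6 were at least 2-fold higher, against 0.17%. The exception was Snord8, at -0.02. In replicate 1 the medians were 0.09 and 0.04, with 34 of 56 members above 0, against 46.3%. Replicate 2 below 0 together with replicate 3 above 0 occurred in 49 of 56 members, against 26.7% of all probesets. Each of these differences is 1 array against 1 array and has no replicate. The medians of both box classes lay within 0.05 of each other in every replicate number.

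**Figure D1:**
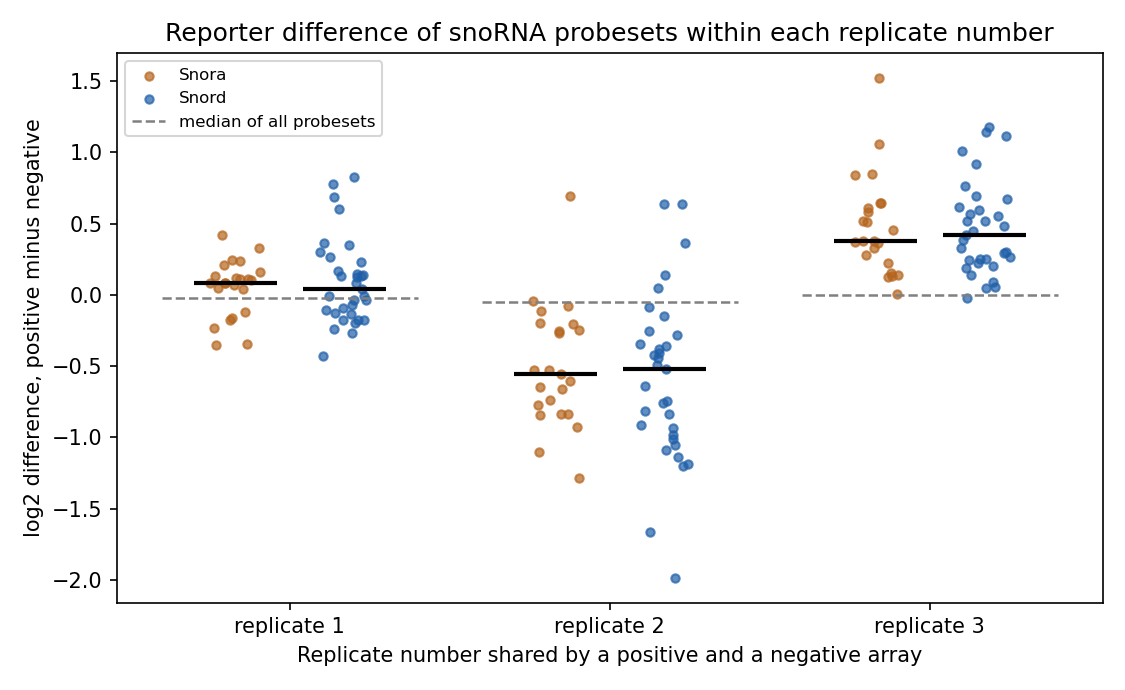
Log2 difference, positive minus negative, of each snoRNA probeset within replicates 1, 2 and 3, with Snora and Snord side by side. Points are probesets, black bars are class medians and the dashed line is the median of all probesets. Both classes lie mostly below 0 in replicate 2 and above 0 in replicate 3.

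Few single members differed the same way in all 3 replicate numbers. The positive array was higher in all 3 for Snora44, Snord73b, Snord85 and Snord104, which is 4 of 56, against 15.8% of all probesets. It was lower in all 3 for Snord8 alone, against 23.2%. Snord104 (probeset 10382104) was the one member whose groups did not overlap, against 4.33% of all probesets that were higher without overlap and 6.97% lower. Its level was 10.91, 10.91 and 11.06 in positive arrays, against 10.77, 10.55 and 10.45 in negative arrays. The groups are separate but close, with a gap from 10.77 to 10.91. The means were 10.96 ± 0.09 in positive and 10.59 ± 0.16 in negative arrays (SD, n = 3 each), a difference of 0.37 (SE 0.12) with a limma adjusted p of 0.904, above the threshold of 0.05.

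Snora44 (probeset 10508721), a box H/ACA snoRNA in the non-coding host Snhg12, had the largest difference of the 56. Its level was 9.57, 9.35 and 10.03 in positive arrays, against 9.53, 8.65 and 8.50 in negative arrays. The groups overlap, since negative array 1 lies above positive array 2. The difference was 0.75 (SE 0.30) and did not pass (limma adjusted p = 0.904). Its neighbour in the same host, Snora16a, stood at 10.01, 8.93 and 10.34 in positive arrays, against 9.94, 9.01 and 9.28 in negative arrays. For Snora16a, positive array 3 alone stood more than 0.1 above its same-numbered negative array. At the other end, Snord49a stood at 9.45, 7.32 and 9.86 in positive arrays, against 9.72, 9.31 and 9.56 in negative arrays, so its difference of -0.65 (SE 0.61) came with a positive array 2 far below the other 5.

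The snoRNAs varied with replicate number, and replicate 2 was the low one. The mean of the 2 replicate 2 arrays was below the mean of the other 4 arrays for 56 of 56 members, against 58.3% of all probesets. The median difference was -0.74 for Snora and -0.98 for Snord, against -0.06 over all probesets. Both replicate 2 arrays lay below all 4 other arrays for 40 of 56 members, 16 of 23 Snora and 24 of 33 Snord, against 21.7% of all probesets. At least 2-fold lower in replicate 2 were 19 of 56 members, 5 Snora and 14 Snord, against 1.08%, and no member was 2-fold higher, against 2.12%. No member had both replicate 2 arrays above the other 4, against 17.5%. Both replicate 3 arrays lay above the other 4 for 12 of 56 members, against 7.21%, and both replicate 1 arrays for 3 of 56, against 9.18%.

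Positive array 2 contributed more of this than negative array 2. Set against positive arrays 1 and 3 alone, positive array 2 was lower for 56 of 56 members, against 55.9% of all probesets, by a median of -1.13 for Snora and -1.34 for Snord. Set against negative arrays 1 and 3 alone, negative array 2 was lower for 48 of 56 members, against 56.2%, by a median of -0.34 for Snora and -0.44 for Snord. Positive array 2 was the lowest of the 6 arrays for 46 of 56 members, against 31.6%, and positive array 3 the highest for 47 of 56, against 13.2%. The mean Snora level was 9.16, 8.23 and 9.48 in positive arrays 1, 2 and 3, against 9.11, 8.73 and 8.995 in negative arrays. The mean Snord level was 8.72, 7.48 and 9.01 in positive arrays, against 8.62, 8.06 and 8.54 in negative arrays. The order of the arrays was the same in both classes. The members' spread was wide: the range over 6 arrays had a median of 1.48 among snoRNA probesets, against 0.50 over all probesets.

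**Figure D2:**
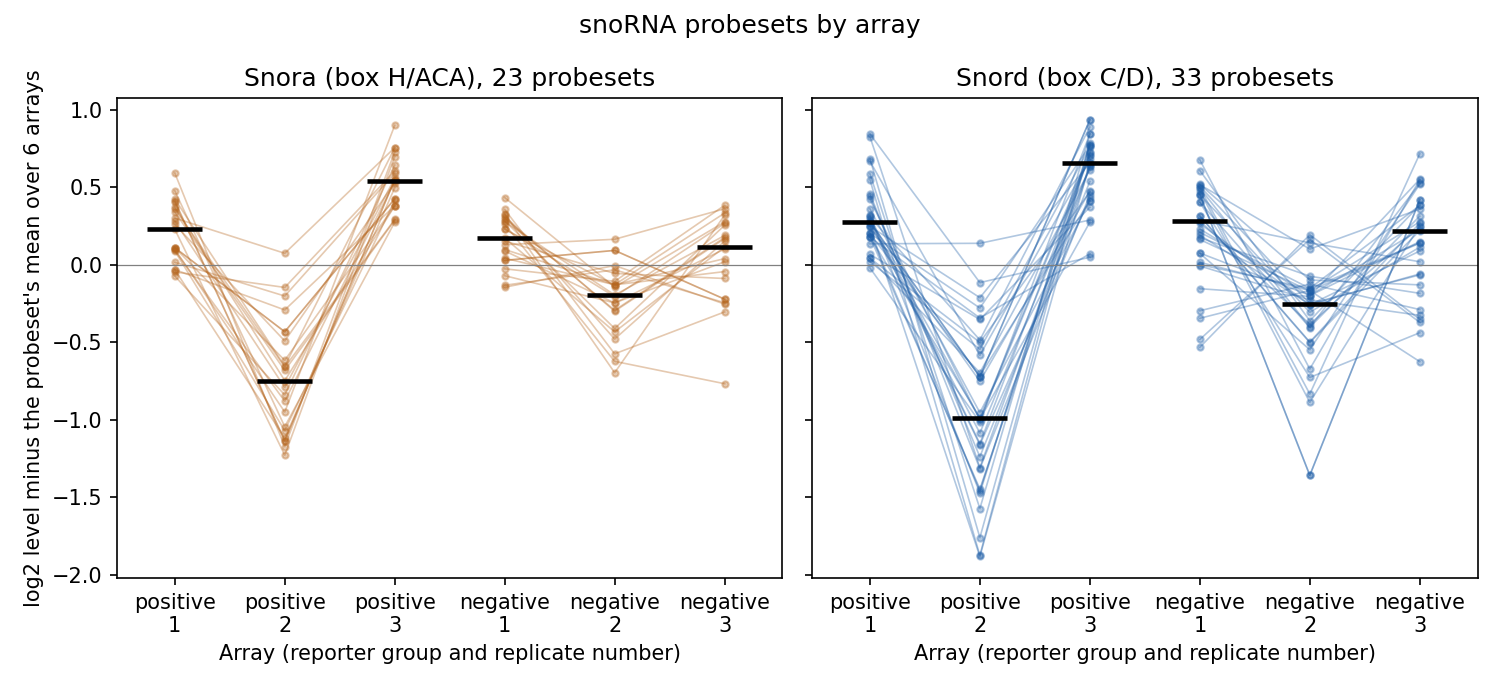
Level of each snoRNA probeset on each array minus its own mean over the 6 arrays (log2), for Snora on the left and Snord on the right. Points joined by lines are probesets within a reporter group, and black bars are medians. Positive array 2 is lowest and positive array 3 highest for most probesets, and negative array 2 is lower than the other negative arrays by less.

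In the test for replicate number (limma F test over the 3 numbers with reporter group in the fit, Benjamini-Hochberg over all probesets) 8 of 56 snoRNA probesets passed, for 7 symbols, against 4.71% (1027) of all probesets. All 8 had replicate 2 lower, a direction in which 1.52% of all probesets passed. The F test weighs all 3 numbers together, so its p-values, here and below, do not belong to the replicate 2 difference alone. At an unadjusted p under 0.05 there were 37 of 56, 14 Snora and 23 Snord, against 24.4%. These calls are sensitive to single arrays. More snoRNA probesets passed without positive array 2 or without negative array 2. Without any other single array the calls were mostly or wholly lost. The calls over all probesets moved the same ways. Each of these fits leaves 1 array for a replicate number. Their counts are therefore given only as ranges, among the alternatives at the end, and no conclusion on single members is drawn from them. With all 35556 probesets of the array in the fit, none of the 56 passed, as did 0 of all probesets. An unadjusted p under 0.05 was found for 26 of the 56, against 6341 of the 35556. With array weights 3 passed, against 616 of 21789 probesets.

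Snord118 (probeset 10377429), the U8 RNA, has its own promoter and acts in processing of the large-subunit ribosomal RNAs. It was the one symbol with no host gene. Its level was 7.23, 6.23 and 7.89 in positive arrays, against 7.41, 5.60 and 7.37 in negative arrays. Both replicate 2 arrays lay below the other 4, and here negative array 2 was the lowest. Replicate 2 averaged 5.91, against 7.48 in the other 4 arrays, a difference of -1.56 (limma F test, adjusted p = 0.0312). The second Snord118 probeset carried the same values.

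Snord35a (probeset 10563108), a methylation guide encoded in Rpl13a, had the smallest p of all members. Its level was 10.03, 8.24 and 10.49 in positive arrays, against 10.21, 8.88 and 10.43 in negative arrays. Replicates 1 and 3 lay within 0.5 of each other and replicate 2 was below them in both groups, with 8.56 on average, against 10.29 in the other 4 arrays (difference -1.73, limma F test, adjusted p = 0.0224). Snord33, a further snoRNA of Rpl13a, had a difference of -1.40 and did not pass (adjusted p = 0.0693, limma F test).

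Snord53 (probeset 10446713) in Wdr43 stood at 11.31, 9.17 and 11.12 in positive arrays, against 10.96, 9.59 and 10.73 in negative arrays. Snord57 (probeset 10476106) in Nop56, whose host encodes a core protein of box C/D particles, stood at 11.51, 10.77 and 12.08 in positive arrays, against 11.54, 10.92 and 11.99 in negative arrays. In both the replicate 2 arrays were the lowest pair. Their replicate 2 differences were -1.65 for Snord53 and -0.93 for Snord57. Both probesets passed the test for replicate number (limma F test, adjusted p of 0.030 and 0.0238). For Snord57 both replicate 3 arrays also lay above all others, with a replicate 3 difference of 0.85.

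Of the box H/ACA class, Snora7a and Snora52 passed. Snora7a (probeset 10547073) in Rpl32 stood at 11.07, 9.95 and 11.07 in positive arrays, against 11.02, 10.21 and 10.85 in negative arrays, a replicate 2 difference of -0.92 (limma F test, adjusted p = 0.0434). Snora52 (probeset 10558919) in Rplp2 stood at 12.98, 12.25 and 13.25 in positive arrays, against 13.15, 12.45 and 13.12 in negative arrays, a difference of -0.77 (limma F test, adjusted p = 0.0461). Both are low in replicate 2 of each group. Snora74a, the U19 RNA, in Snhg4 had the largest replicate 2 difference of the class, -1.24, and missed the threshold (limma F test, adjusted p = 0.0520), with 0.0491 after median centring and 0.0434 with 1 probeset per symbol. Snora3 in Rpl27a differed by -1.08 on probeset 10570432 and did not pass (limma F test, adjusted p = 0.125).

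The largest replicate 2 difference of all 56 was that of Snord47, a methylation guide in the non-coding host Gas5. Its level was 9.06, 6.64 and 9.29 in positive arrays, against 9.19, 7.84 and 9.06 in negative arrays. Replicate 2 averaged 7.24, against 9.15 in the other 4 arrays, a difference of -1.91. In the test for replicate number Snord47 narrowly missed the threshold (limma F test, adjusted p = 0.0505). At the other end Snord104 had a replicate 2 difference of -0.07, with -0.07 within positive arrays and -0.06 within negative arrays. For the other members with small values, the groups went opposite ways. The Snord58b probesets had -0.01 and -0.09, with positive array 2 lower than the other positive arrays by -0.66 and -0.77 and negative array 2 above the other negative arrays by 0.64 and 0.59. Snora73a had -0.13, with -0.43 within positive arrays and 0.16 within negative arrays, and Snora73b had -0.16, with -0.51 and 0.19. Both Snord58b probesets are dim, with mean levels in the lowest 5% of all probesets (percentiles 4.14 and 4.62), while Snora73a, Snora73b and Snord104 are above the 88th percentile.

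Snora73a and Snora73b are the U17 RNAs, which act in cutting the precursor of the small-subunit ribosomal RNA, and lie in Snhg3. Snora73a (probeset 10516908) stood at 10.77, 10.67 and 11.42 in positive arrays, against 10.69, 10.79 and 10.57 in negative arrays. The 5 arrays other than positive array 3 lay between 10.57 and 10.79, so here replicate 2 was not low and only positive array 3 stood out. The reporter difference of 0.27 (SE 0.21, limma adjusted p = 0.911) was 0.04 without positive array 3. Snord14e, a U14 RNA in Hspa8 that is likewise needed to process the small-subunit precursor, stood at 10.21, 8.93 and 10.21 in positive arrays, against 10.22, 10.07 and 9.95 in negative arrays. For Snord14e only positive array 2 was low. Its reporter difference of -0.30 (SE 0.34, limma adjusted p = 0.932) turned to 0.13 without that array. The imprinted Snord113 to Snord116 families had no single-symbol probeset and are not analysed here.

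By box class the 2 groups of snoRNAs were alike in pattern and differed in size. The median replicate 2 difference was -0.74 for Snora (quartiles -0.93 and -0.47) and -0.98 for Snord (quartiles -1.36 and -0.53). The ranges between the quartiles overlap, and no test was made of the class difference, since members share hosts and arrays. By kind of host, the median was -0.96 for 24 members in ribosomal protein genes, -0.66 for 18 in other protein-coding genes and -0.93 for 12 in non-coding hosts, and all members of each kind were below 0. Over the 51 symbols, taking 1 probeset each, the median correlation between pairs across the 6 arrays was 0.84, and 1255 of 1275 pairs were above 0. All of these correlations share the same 6 arrays.

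The protein-coding hosts had replicate 2 differences on both sides of 0, with medians close to it. A probeset of its own was available for 24 of the 40 hosts, which hold 28 of the snoRNA symbols. The replicate 2 difference had a median of 0.09 over 10 ribosomal protein hosts, with 8 of 10 above 0. It was 0.01 over 13 other protein-coding hosts, with 7 of 13 above 0. Of all 21789 probesets 9081 were above 0. The 24 hosts are bright, with a median level of 12.19, against 7.66 over all probesets. Their range over the arrays had a median of 0.34, against 0.50. The protein-coding hosts ran from -0.45 for Rplp2 to 0.96 for Rbmx. Both are the dimmest of the measured hosts, with mean levels of 7.43 and 8.51. Rplp2 and Wdr43 (-0.43), which host Snora52 and Snord53, had both replicate 2 arrays below the other 4, as had Gas5 and Ncl, which makes 4 of 24 hosts against 21.7% of all probesets. In the F test 0 of the 24 hosts passed, against 4.71% of all probesets, and 7 of 24 had an unadjusted p under 0.05, against 24.4%. Each of the 28 symbols lay below its own host in the replicate 2 difference, and over the 31 probesets concerned the median gap was -0.95. Rpl23a, which encodes a large-subunit ribosomal protein and hosts Snord42a and Snord42b, stood at 11.82, 12.38 and 12.07 in positive arrays, against 11.71, 12.26 and 12.05 in negative arrays. Its replicate 2 arrays were the highest pair. Snord42a stood at 8.77, 6.61 and 9.03 in positive arrays, against 8.47, 7.80 and 8.43 in negative arrays. Its replicate 2 arrays were the lowest pair, so snoRNA and host ran opposite ways. Across the 28 symbols the replicate 2 differences of snoRNA and host correlated at r = 0.26, a description over genes that share arrays and, in part, hosts.

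**Figure D3:**
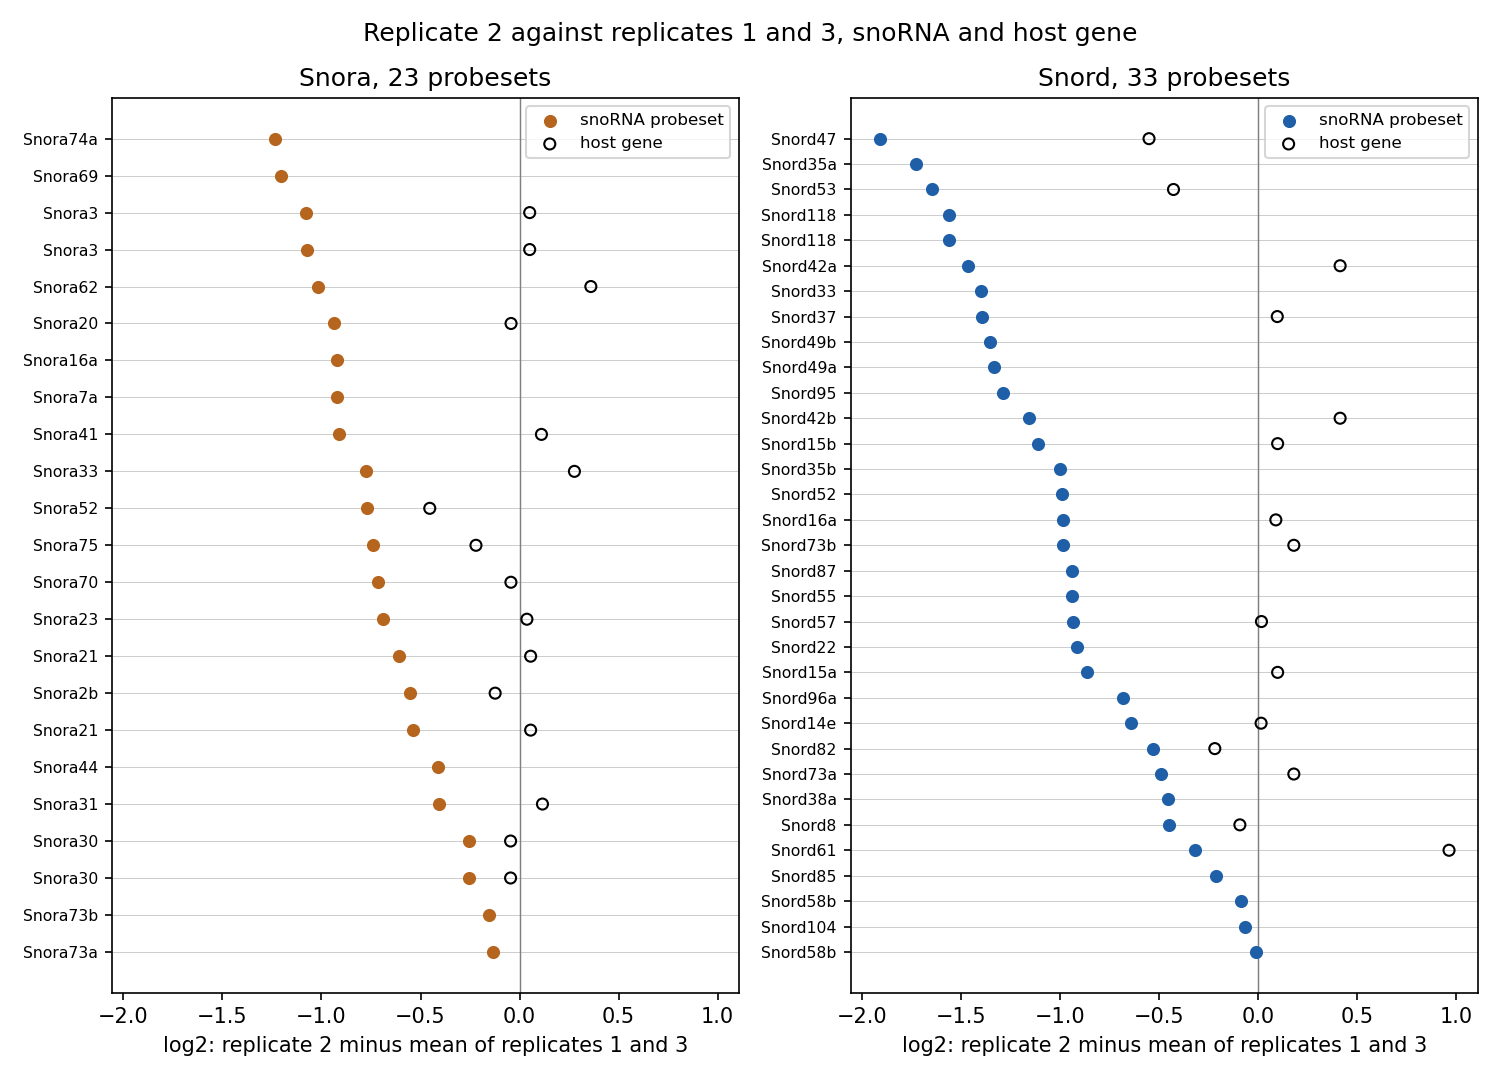
Replicate 2 difference (mean of both replicate 2 arrays minus mean of the other 4, log2) of each snoRNA probeset (filled) and, where measured, its host gene (open), for Snora on the left and Snord on the right. All 56 filled points lie below 0, and every open point lies to the right of its filled point.

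A list of non-coding snoRNA hosts was also compared. These genes, of which Gas5 and the Snhg genes are examples, encode no known protein, and the spliced RNAs of some, Gas5 among them, are known to be short-lived. The list also holds the long RNAs Meg3 and Rian. Of 23 listed symbols 9 had a probeset of their own, and of these only Gas5 hosts any of the 56 members. All 9 had a replicate 2 difference below 0, against 58.3% of all probesets, with a median of -0.66, and 6 of 9 had both replicate 2 arrays below the other 4, against 21.7%. Within positive arrays the median was -1.21 and all 9 were below 0, and within negative arrays it was -0.34 with 3 of 9 above 0. Gas5 stood at 11.19, 10.50 and 11.35 in positive arrays, against 11.21, 10.88 and 11.22 in negative arrays. Its replicate 2 difference of -0.55 was smaller than that of Snord47 within it. Gas5 did not pass the test for replicate number (limma F test, adjusted p = 0.127). Snhg15 was the 1 of 9 that passed, against 4.71% of all probesets. It stood at 8.99, 8.13 and 9.47 in positive arrays, against 9.27, 8.27 and 9.28 in negative arrays, a difference of -1.05 (limma F test, adjusted p = 0.0317). Snhg5, Snhg16 and Snhg17 differed by -1.15, -1.11 and -1.10 and did not pass.

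Sequences of the snoRNAs are not shown here. The start regions of 4 non-coding hosts are printed because their snoRNAs cover the span of the replicate 2 differences, with Snord47 (Gas5), Snord22 (Snhg1) and Snora16a and Snora44 (Snhg12) lower and Snora73a and Snora73b (Snhg3) near 0. Many snoRNA hosts are known to begin with a run of C and T bases, the start of a terminal oligopyrimidine tract. Each line gives 40 bases before and 20 bases from the annotated start on the transcribed strand (RefSeq, GRCm38.p6), and capitals mark an unbroken run of at least 5 C or T bases that covers the start base.
Gas5, start 1, chr1:161034561-161034620, plus strand: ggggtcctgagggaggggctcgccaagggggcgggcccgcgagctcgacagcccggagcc
Gas5, start 2, chr1:161035126-161035185, plus strand: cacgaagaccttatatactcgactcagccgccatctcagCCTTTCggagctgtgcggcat
Snhg1, chr19:8723447-8723506, plus strand: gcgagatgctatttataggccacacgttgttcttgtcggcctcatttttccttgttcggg
Snhg12, chr4:132308638-132308697, plus strand: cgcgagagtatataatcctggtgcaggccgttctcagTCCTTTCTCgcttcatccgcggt
Snhg3, chr4:132353667-132353726, minus strand: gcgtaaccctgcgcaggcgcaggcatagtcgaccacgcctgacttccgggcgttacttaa

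Such a run was present at the second start of Gas5 and at Snhg12, and was absent at the first start of Gas5, at Snhg1 and at Snhg3. The run was searched on the transcribed strand only. Among the 31 hosts with a start window in the table, 11 of 33 windows (33.3%) had the run, against 10.1% of all 32851 windows. The run is a description of letters and shows neither a start in these cells nor a cause.

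Of 19 measured genes for core and assembly proteins of snoRNA particles, 0 passed the reporter test, against 0.0% of all probesets, and 0 passed the F test for replicate number, against 4.71% (limma, adjusted). An unadjusted F test p under 0.05 was found for 7 of 19, against 24.4%. Their replicate 2 differences had a median of -0.09, with 14 of 19 below 0, against 58.3%, and 8 of 19 had both replicate 2 arrays below the other 4, against 21.7%. Between reporter groups Nop56 and Rpap3 were higher without overlap and Fbl and Nufip1 lower without overlap, 2 of 19 each way, against 4.33% and 6.97%. Fbl, the methyltransferase of box C/D particles, stood at 11.55, 11.51 and 11.53 in positive arrays, against 11.62, 11.76 and 11.64 in negative arrays. Its difference was -0.14 (SE 0.10, limma adjusted p = 0.904), and its replicate 2 difference was 0.06. Nop56 had a reporter difference of 0.11. Dkc1, the pseudouridine synthase of box H/ACA particles, stood at 11.32, 10.67 and 11.26 in positive arrays, against 11.44, 10.999 and 11.28 in negative arrays. Its replicate 2 arrays were the lowest pair, a difference of -0.49. Dkc1 did not pass the test for replicate number (limma F test, adjusted p = 0.105). The largest reporter differences of the list were 0.28 for Rpap3, -0.22 for Rrp9 and -0.22 for Nufip1, none past the test. The 10 measured genes of snoRNA capping and end processing had 0 past either test.

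Other short RNAs were compared as a reference for the class. The 296 single-symbol probesets of microRNA genes had a median replicate 2 difference of -0.16, with 246 (83.1%) below 0, against 58.3% of all probesets, and 2 (0.676%) passed the F test, against 4.71%. The 4 probesets of small Cajal body RNAs, relatives of the snoRNAs that guide modification of spliceosomal RNA, had a median of -0.49, but 2 of them are Scarna17 with the same values on every array. By symbol Scarna17 was at -0.59, Scarna8 at -0.38 and Scarna13 at 0.55. The snoRNA medians of -0.74 and -0.98 lay further below 0 than either of these medians. The microRNA probesets are dim, with a median level of 5.36, against 8.83 for the snoRNA probesets and 7.66 over all probesets. Values of dim probesets can be pulled together by the processing, so the microRNA median cannot show that snoRNAs differed more. The range over 6 arrays had a median of 0.52 among microRNA probesets, against 0.50 over all probesets and 1.48 among snoRNA probesets. The difference between these classes was not tested.

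**Figure D4:**
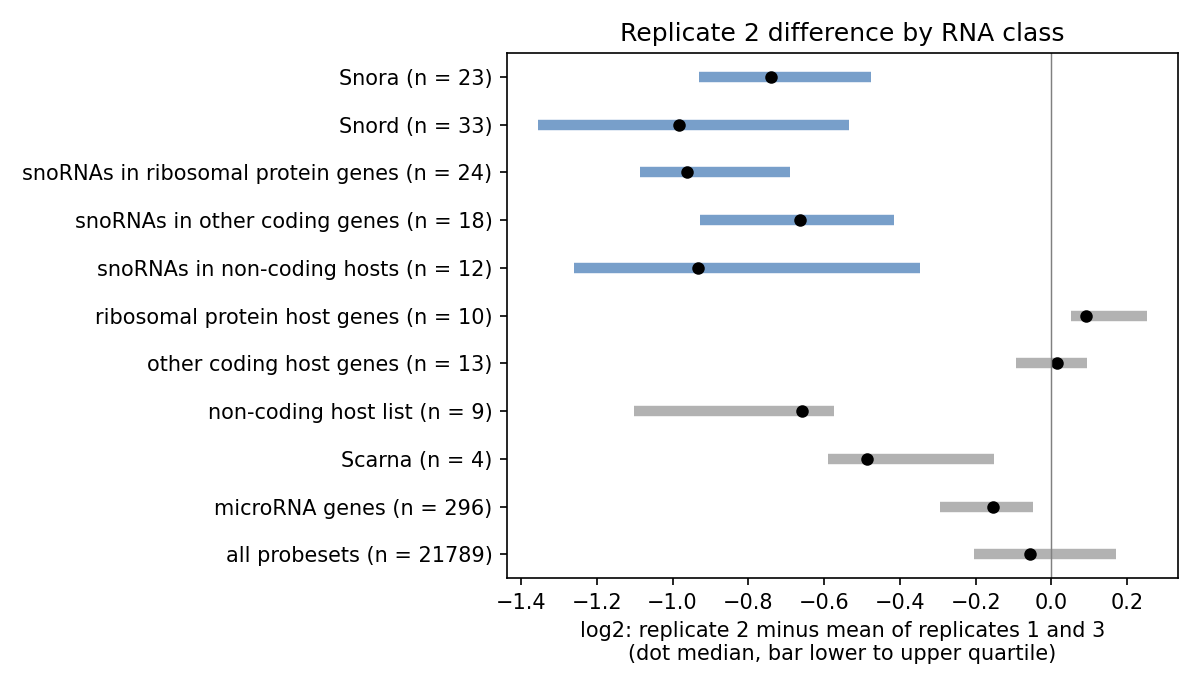
Replicate 2 difference (log2) for snoRNA classes (blue) and for host genes, other short RNAs and all probesets (grey). Dots are medians and bars run between the lower and upper quartile. The snoRNA classes and the non-coding host list lie below -0.5 at the median, while the medians of the protein-coding hosts lie near 0.

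Some other markers differed in replicate 2 as well. The 8 two-cell-like markers were all higher in replicate 2, against 9081 of all 21789 probesets, with a median of 1.78. None passed the F test, against 4.71% of all probesets. In negative array 2, 7 of 8 were lower than in the mean of negative arrays 1 and 3, against 56.2%. The 8 fibroblast feeder markers had a mean level of 6.87, 7.76 and 6.68 in positive arrays, against 7.18, 7.85 and 7.37 in negative arrays. In the replicate 2 difference 5 of 8 were above 0, against 9081 of all 21789 probesets, and 2 of 8 passed the F test, against 4.71%. Tagln and Acta2 were higher by 2.90 and 2.85 (limma F test, adjusted p of 0.0262 and 0.0304), while Col3a1 was at -0.32, Thy1 at -0.24 and Lum at -0.01. The other 3 lay between 0.19 and 0.47. The 8 ES cell markers had a median of -0.38, with 6 of 8 below 0, against 58.3% of all probesets. Zfp42, lower by 0.79, was the 1 of 8 that passed (limma F test, adjusted p = 0.0369), against 4.71%. The part of these differences in the snoRNA values was not tested. Fewer cells of a type and less RNA per cell cannot be told apart in such bulk samples, and the labels do not say what a replicate number marks.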

How the data were processed

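The values are log2 expression levels that the authors deposited for each sample. Per the submitters' processing notes, they were made with RMA in Affymetrix Expression Console. RMA corrects background, normalizes quantiles and summarises probes per probeset, so total RNA differences are removed and dim probesets can be pulled together. The software version, genome build and annotation release are unknown here. Per the labels, RNA was isolated with a Qiagen RNeasy kit, made mainly for RNA longer than most snoRNAs, and 100 ng of total RNA was labelled. The part of that isolation in the values was not tested.

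Symbols came from the platform annotation, with 21789 probesets of 1 symbol, 1621 of several and 12146 unlisted. All 56 members matched RefSeq (GRCm38.p6) by identifier with the same symbol. Another 41 probesets list a Snora or Snord symbol among several, 24 of them with Snord116 copies, and were left out. A host is a gene whose span holds the snoRNA, used without strand. A host with several probesets was represented by its brightest.

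The reporter comparison used limma (version 3.58.1, R version 4.3.3) with two-sided moderated tests, Benjamini-Hochberg adjustment over 21789 probesets and a threshold of 0.05, and replicate numbers were compared with limma's moderated F test with reporter group in the fit. Both fits were tested on simulated data with independent noise of 1 common SD. Apart from planted differences, same-numbered arrays did not deviate together there, so performance on these arrays is not shown. Errors are the SD over 3 arrays or the SE of the fit. No label names separate cultures, and the p-values therefore reflect spread among 6 samples that may be technical. The number of arrays limits the precision. Deviations from the group mean correlated between same-numbered arrays (r = 0.551, 0.53 and 0.369), so the numbers pair the samples by the data, not by the labels.

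The members and lists were chosen with earlier results of these data known. Named members are those without overlap between groups, those past a test, the 4 smallest F test p-values per class and the rRNA-processing snoRNAs. Of the members past a test, 1 is not reported here singly. Snora16a, Snora44, Snord8, Snord22, Snord33, Snord42a, Snord42b, Snord47, Snord49a, Snord58b, Snord73b, Snord85, Snhg5, Snhg15, Snhg16, Snhg17, Scarna8, Scarna13, Scarna17, Rbmx, Rplp2, Wdr43, Ncl, Nop56, Tagln, Acta2, Col3a1, Thy1 and Lum were chosen after their values were seen, as were the counts by replicate 2 and by pair. The alternatives tried were median centring, a second quantile normalization, leaving out the dimmest 30% of probesets, all probesets, 1 probeset per symbol, array weights, no reporter group in the fit for replicate number, the replicate block and leaving out arrays.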

Additional observations from a re-analysis of the deposited data

How the results depend on the processing

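The number of arrays limits every statement here, and signal over background is not known for single probesets. In the reporter comparison 0 probesets passed under any alternative, with a replicate block and without any one array included. In the fit with a replicate block the limma adjusted p of Snord104 was 0.400, and the block changed no call. The class medians stayed at 0.0029 and -0.06. A block cannot change them, since each replicate number holds 1 array of each group. The count of probesets past the replicate number test was 1027, and became 0 with all probesets of the array and 616 with array weights, while leaving out 1 array, an alternative added after seeing the data, gave between 0 and 4764. The snoRNA count of 8 became 0, 3 and between 0 and 48 in the same cases, and 9 or 10 under the other alternatives. The cause was not tested. Each fit without 1 array leaves a replicate number with 1 array. The ranges from those fits therefore show only that the calls depend on single arrays. The Snora minus Snord reporter difference of 0.07 ranged between -0.058 and 0.16 without 1 array. The Snora median lay between -0.24 and 0.36 and the Snord median between -0.34 and 0.40 in those cases. With 1 replicate 2 array left out, the remaining one was set against only arrays 1 and 3 of its own group. This gives the within-group medians reported above. They were -1.13 for Snora and -1.34 for Snord in positive arrays, and -0.34 and -0.44 in negative arrays. The reporter difference of Snord118 lay between -0.27 and 0.77 without 1 array, and that of Snord14e between -0.51 and 0.13. With array weights Snord14e was at 0.13, and without both arrays of replicate 2 at 0.12. The differences of Snora44, Snord104 and Snora73a kept their direction under all alternatives tried.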
